A study of Mus musculus with 16 samples.

Results

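The proteins of the large ribosomal subunit were followed at the level of their mRNA through oocyte maturation in mice with and without the proteasome subunit PSMA7. Genes were taken by name alone: every entry of the expression table named Rpl with a number (with or without the endings a, l, l1 or al) or Rplp0, Rplp1 or Rplp2, leaving out names marked as pseudogenes with -ps. The rule gave 54 entries for 53 gene names, of 28618 entries and 27987 names in all, because Rpl10a had 2 entries. All 16 libraries were used, 4 in each of 4 groups. WT GV and WT MII were oocytes of wildtype females at the germinal vesicle (GV) stage, the fully grown oocyte in prophase arrest, and at metaphase II (MII), the ovulated egg. The cKO GV and cKO MII oocytes came from Zp3-Cre; Psma7 flox/flox females, in which Cre is driven by the promoter of a zona pellucida gene that is active in the growing oocyte, so that follicle cells keep Psma7 and protein made before the deletion can persist. The floxed allele was carried on C57BL/6. Females were 3 to 4 weeks old and had received 5 IU of PMSG (a gonadotropin that makes follicles grow) 44 h earlier. MII females then received hCG (which triggers ovulation), eggs were taken from the oviduct 14 to 16 h later, and cumulus cells were removed with 0.3% hyaluronidase. All groups thus shared PMSG, whereas hCG and hyaluronidase were given to the MII groups, and Zp3-Cre was carried by the cKO groups, so that stage and hormone, and deletion and Cre, cannot be told apart. Each library was a pool of 5 oocytes per the labels, which call the libraries biological replicates but do not tie them to females, so p-values measure the spread between pools. The paper's RNA-seq methods give a larger pool and speak of embryos, and the labels were followed here. The paper reports that some ovulated cKO oocytes had not released the first polar body and that some were still at the GV stage. Its methods do not say how the cKO MII pools were picked in this respect, so their stage rests on the label.

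The large subunit joins the small subunit at the start of every translated mRNA and carries the centre that forms peptide bonds, the tunnel through which the new chain leaves, and a stalk that binds translation factors. Its proteins are assembled onto ribosomal RNA in the nucleolus, and the mRNAs of most of them belong to the TOP class, which begin with a tract of pyrimidines (C and T) and whose translation depends on the mTOR kinase. A growing oocyte builds up ribosomes and stored mRNA, then stops transcription, and during maturation it translates some stored mRNAs and degrades others, so that the transcripts of an egg are what is left of those of the GV oocyte.

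Depth, recovered from the smallest steps of the FPKM values, was 10.5 to 15.7 M fragments per library, and at the median length of the large subunit transcripts (830 nt) and the median depth 1 FPKM stood for about 11.3 fragments. FPKM counts fragments per kilobase of transcript and per mapped fragment of the library, so it is a share of one library. Fewer oocytes and less RNA per oocyte cannot be told apart in it, and because libraries were primed with oligo-dT, nor can loss of a transcript and loss of its poly(A) tail. Psma7 (chr2:180036374-180042433, minus strand, mm10) stood at 165 ± 25.3 FPKM in WT GV oocytes (SD, n = 4, as below), 14.6 ± 2.82 in cKO GV oocytes, 126 ± 32.1 in WT eggs and 39.7 ± 20.2 in cKO eggs, with no overlap between genotypes at either stage. Of 10 oocyte markers, Gdf9, Bmp15, Nlrp5, Ooep and Oosp1 were above 317 FPKM in every library. The lowest library held 321 FPKM of Zp3, 212 of Zp2, 99.0 of Zp1, 136 and 5.27 of the entries of Padi6, and 1.14 of Figla. Between eggs, 3 of their 11 entries (Figla, Zp3 and Ooep) were higher in cKO by limma and 0 lower, where 6.53% of all transcripts were higher. The defining markers of granulosa cells Amh and Foxl2, and of the cumulus Ptx3 and Tnfaip6, stood at 0.0773 FPKM or less in every library. Other markers of the list were higher, and Fshr, Gja1 and Inha reached 0.862, 0.826 and 0.815 FPKM in single libraries. Their means were higher in GV oocytes than in eggs (for Inha 0.146 in WT GV, 0.435 in cKO GV, 0.0105 in WT MII and 0.0460 in cKO MII). Means of Cyp19a1 and Kitl were higher in eggs. Fshr, Gja1 and Inha were too low to be tested. All 20 cumulus and granulosa markers together summed to 16.99 to 18.8 FPKM in WT GV and 18.5 to 21.7 in cKO GV libraries. Their sums in eggs were 19.9 to 24.4 FPKM for WT and 22.7 to 23.8 for cKO, most of it from Cyp19a1, Kitl and Nr5a2.

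In WT GV oocytes the large subunit mRNAs were spread over a wide range although most of their proteins enter each ribosome as 1 copy. By mean FPKM, which is per length, 14 entries stood at 100 or more, 27 from 10 to 100, 9 from 1 to 10 and 4 below 1, with a median of 24.4. The most abundant were Rpl4 at 399 ± 20.2 FPKM and Rpl17 at 367 ± 33.6, followed by Rplp0 at 250.3 ± 29.0, Rpl10 at 236 ± 38.6 and Rpl35 at 221 ± 43.8. Rpl4 and Rpl17 differed by less than the SD of Rpl17, and Rpl10 differed from Rplp0 and Rpl35 by less than its SD. Within libraries, Rpl4 stood above Rpl17 and Rpl10 above Rpl35 in all 4, while Rplp0 and Rpl10 changed order. The 7 most abundant entries held 50.5% of the summed mean. The 4 entries under 1 FPKM were Rpl38, Rpl10l, the second entry of Rpl10a and Rpl32l, and these were not tested in any comparison, which left 50. Reads from a spliced ribosomal mRNA can also match its intronless copies in the genome, and how the authors' counting placed them is not given in the sources used here. The 70 entries with pseudogene names held a summed 159 to 384 FPKM per library, 21 of them reaching 1 FPKM in at least 1 library, so the level of any single gene here is uncertain by reads shared with its copies. Rpl6l and Rpl32l passed the name rule but are processed pseudogenes in GENCODE M21.

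**Figure D1:**
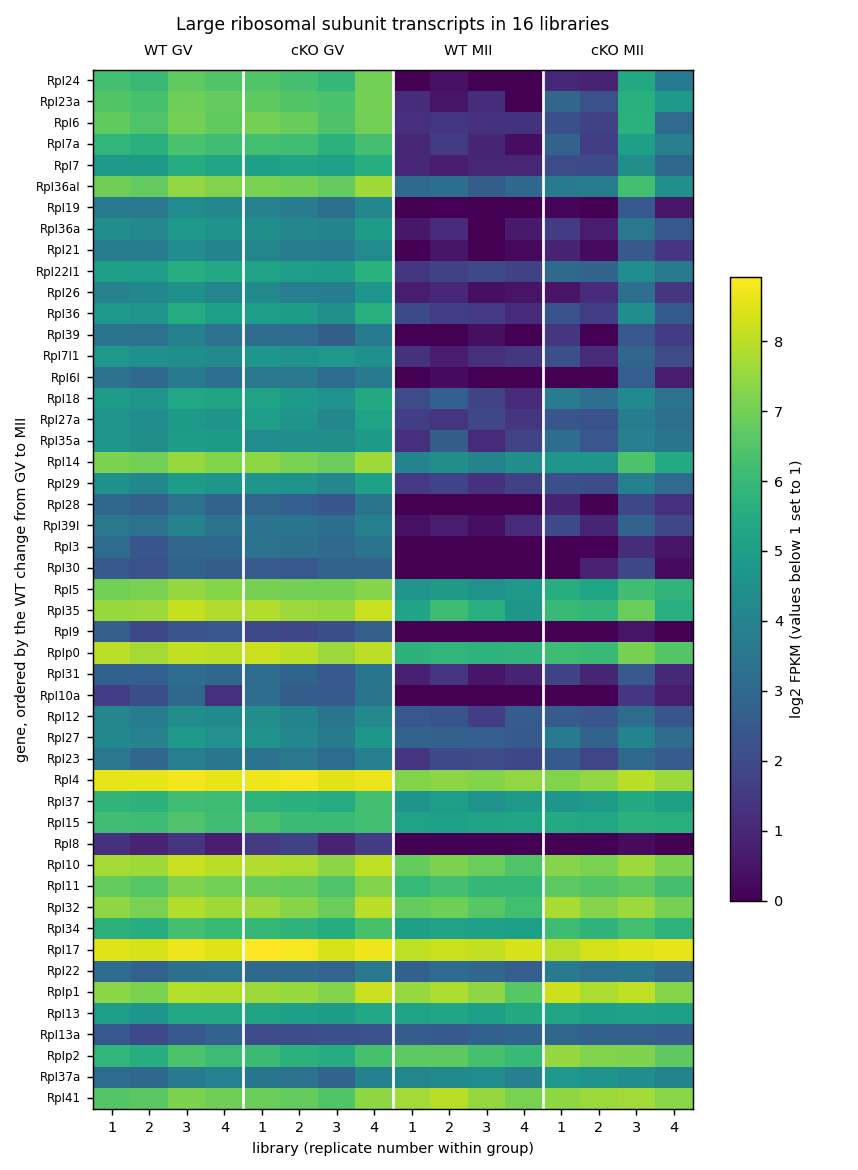
Heat map of log2 FPKM (colour, values below 1 set to 1) of 49 of the 50 tested large subunit entries (rows, ordered by their change from GV to MII in WT) in the 16 libraries (columns, 4 groups of 4). The 8 GV columns look alike, most rows darken in the eggs, and the darkest rows at the top are brighter in cKO egg replicate 3 than in any other egg.

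Start regions of genes whose mRNAs were lost most and least during WT maturation, among those with a listed start, are shown here because the tract of pyrimidines at the start is what marks this family of mRNAs. RefSeq (GRCm38.p6) listed a start for 40 of the genes, and none for others, among them Rpl7 and Rpl23a, which also lost much. Where a gene had several, the one with the longest run was taken for runs, and any of them for motifs. Within 50 bases on either side of the start, on the transcribed strand, the longest unbroken run of C and T had a median of 11 bases over these 40 genes and 7 over all 27025 genes, and a run of 8 or more was found in 35 of 40 (87.5%) against 39.3% of all genes. Each window holds 30 bases from around that run, 5′ to 3′, with the run in capitals. Among the most lost (log2 fold change in WT, MII over GV, of -6.29 for Rpl24, -5.43 for Rpl6, -5.07 for Rpl7a, -4.15 for Rpl36al and -3.94 for Rpl19) the windows were as follows.
Rpl24 (chr16:55966227-55966256, plus strand): acctcaaacccaCTCCCCgccaatgctgta
Rpl6 (chr5:121204521-121204550, plus strand): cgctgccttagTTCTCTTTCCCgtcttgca
Rpl7a (chr2:26910789-26910818, plus strand): acaaTTCCCTCTTCTTTCTTTCTCCagcag
Rpl36al (chr12:69184020-69184049, minus strand): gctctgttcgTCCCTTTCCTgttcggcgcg
Rpl19 (chr11:98026944-98026973, plus strand): gcggcccacaagCTCTTTCCTTTCgctgct
Among the mRNAs that were kept (0.74 for Rpl41, 0.68 for Rpl37a, 0.44 for Rplp2, 0.26 for Rpl13a and 0.13 for Rpl13) they were as follows.
Rpl41 (chr10:128549119-128549148, minus strand): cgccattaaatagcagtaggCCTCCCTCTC
Rpl37a (chr1:72711275-72711304, plus strand): gcattgcgTCCCTTCCTCTTCggacttggg
Rplp2 (chr7:141447636-141447665, plus strand): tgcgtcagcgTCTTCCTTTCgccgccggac
Rpl13a (chr7:45128722-45128751, minus strand): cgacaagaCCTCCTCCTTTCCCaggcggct
Rpl13 (chr8:123102324-123102353, plus strand): cgtgacgtcaCTTCCCTTTCgcctgatttt
The longest run of Rpl24 was 6 bases, while the other 9 windows hold runs of 10 or more, so long runs occurred in both sets. The runs of Rpl24 and Rpl13 lay upstream of their listed starts. Those of Rpl6, Rpl19, Rpl36al, Rpl37a and Rpl41 began 23 to 40 bases downstream, so the windows of these genes do not show a tract at the listed start. The median run was 12 bases in the 9 genes with a listed start whose fitted change (values below 1 FPKM set to 1) was over 10-fold downwards in WT eggs, and 13.5 in the 8 whose fitted change was under 2-fold downwards or was upwards. From 250 bases before to 50 after a listed start, on either strand, the motif CTCTTTCC was present in 8 of 40 genes (20.0%) against 3.57% of all genes, CCGGAAGT in 7 (17.5%) against 4.31%, and AAGATGGC in 4 (10.0%) against 3.19%. These matches describe letters only, and CTCTTTCC can itself form part of a C and T run.

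The first comparison asked whether deletion of Psma7 had altered these mRNAs before maturation began. At the GV stage none of the 50 tested entries passed an adjusted p of 0.05 in limma in either direction, where 0.0994% of all 11062 transcripts tested were higher and 0.0181% lower in cKO. At an unadjusted p under 0.05 in limma, 2 of the 50 were higher and 0 lower, where 843 and 339 of all 11062 transcripts were. The median log2 fold change (cKO over WT) of the 50 was -3.70e-04 against 0.042 for all transcripts, and the ranges overlapped for all 50 entries (of all transcripts 4.25% lay apart upwards and 2.42% downwards). The largest difference was that of Rpl10a, at 3.07, 4.43, 7.85 and 2.34 FPKM in the WT and 9.12, 6.17, 5.71 and 10.7 in the cKO GV libraries, with a log2 fold change of 0.95 ± 0.34 (SE), adjusted p = 0.344. Summed FPKM of the 54 entries was 3398, 3088, 4393 and 3826 in WT GV replicates 1 to 4 and 3913, 3583, 2928 and 4475 in the cKO GV libraries. The spread within either genotype was wider than the gap between their means of 3677 and 3725.

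During WT maturation most of the family was lost. Of the 50 tested entries 43 were lower and 2 higher in MII than in GV (86.0% lower, against 52.4% lower and 26.1% higher of all 10475 transcripts tested), and the same number, 43, had egg values all below all GV values (86.0%, against 48.7%). The median log2 fold change was -2.54 for the 50 entries and -0.44 for all transcripts. Of the 50, 10 had a WT egg mean under 1 FPKM and were tested only through their GV level (Rpl3, Rpl8, Rpl9, Rpl10a, Rpl19, Rpl24, Rpl28, Rpl30, Rpl39 and Rpl6l). Among the other 40, 33 were lower and 2 higher (82.5% lower, against 46.5% of the 8827 transcripts at or above that mean at both stages), with a median of -2.26. With values below 1 FPKM set to 1, mean FPKM was over 10-fold lower in eggs for 14 entries (among them Rpl6, Rpl7, Rpl7a, Rpl19, Rpl22l1, Rpl23a, Rpl24, Rpl36al and Rpl39), where 3.79% of all transcripts were. With the values as deposited it was so for 20 of the 50. These include all of the 10 entries tested only through their GV level except Rpl8, and the share of all transcripts was not computed. Only Rpl37a and Rpl41 passed the threshold upwards, and Rplp1, Rplp2, Rpl13, Rpl13a and Rpl22 passed in neither direction. Expressed as a percentage of the GV mean, the level in WT eggs ran from 0.954% for Rpl24 to 168% for Rpl41, with a median of 12.6%, and 7 entries kept under 5%. Neither transcript length (Spearman's rho = 0.015 over 49 entries) nor the GV level (rho = 0.040 over 50) ordered the entries by this loss, as a description across genes that share libraries.

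In cKO the median log2 fold change was nearer to 0. Of the 50 entries 39 were lower and 4 higher in MII (against 51.0% lower and 23.0% higher of all 10748 transcripts tested), with a median log2 fold change of -1.61 beside -0.42 for all transcripts. Of the 50, Rpl8 and Rpl9 had a cKO egg mean under 1 FPKM and were tested only through their GV level. By the mean of the 4 eggs, a median of 32.7% of the cKO GV mean was kept, with a range of 12.2% to 234% and no entry under 10%. Single libraries did go under 10%. Rpl24 kept 2.26, 2.08, 48.4 and 14.7% in cKO egg replicates 1 to 4, and Rpl6 kept 3.97, 2.95, 45.4 and 7.50%, so such means rest largely on replicate 3. Besides Rpl37a and Rpl41, the entries that rose were Rplp2 and Rpl13a. The 7 entries past the threshold in neither direction were Rplp1, Rpl11, Rpl13, Rpl17, Rpl22, Rpl32 and Rpl34. The maturation comparisons of the 2 genotypes share no libraries, and the difference between them was tested as the interaction given further on.

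**Figure D2:**
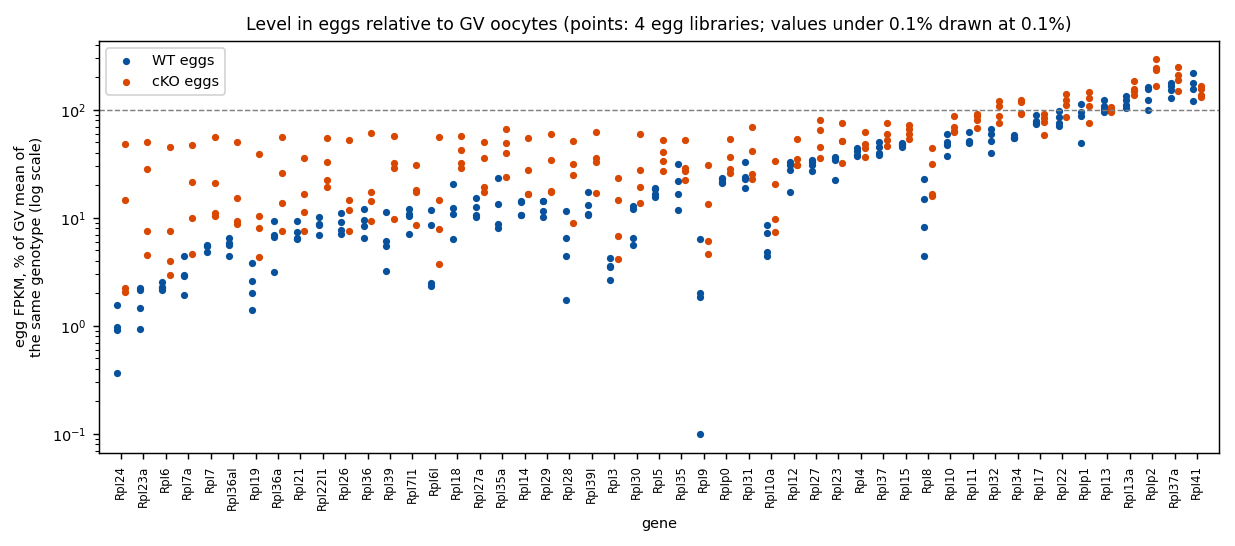
FPKM of each egg library as a percentage of the GV mean of the same genotype (vertical axis, log scale) for 49 of the 50 tested entries, ordered as in the heat map; blue points are the 4 WT and orange points the 4 cKO egg libraries, and the dashed line marks 100%. Mean WT percentages run from 0.954% for Rpl24 at the left to 168% for Rpl41 at the right, and for most genes the orange points lie at or above the blue ones.

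Between eggs of the 2 genotypes the difference ran in 1 direction. Of the 46 entries tested in eggs (Rpl3, Rpl8, Rpl9 and Rpl10a fell under the mean of 1 FPKM), 12 were higher in cKO and 0 lower (26.1% higher, against 6.53% higher and 1.49% lower of all 9492 transcripts tested). At an unadjusted p under 0.05 in limma, 30 were higher and 0 lower, where 1952 and 835 of all 9492 transcripts were. Among the 12 were Rpl5, Rpl7, Rpl7a, Rpl11, Rpl18, Rpl22l1, Rpl23a, Rpl27a, Rpl32 and Rpl34. The log2 fold change (cKO over WT) was above 0 for 44 of the 46 (59.4% of all transcripts), with a median of 0.85 beside 0.070 for all transcripts. In 20 entries the cKO egg values were all above all WT egg values (43.5%, against 13.6%). Of the 46, 6 had a WT egg mean under 1 FPKM and were tested only through the cKO eggs (Rpl19, Rpl24, Rpl28, Rpl30, Rpl39 and Rpl6l), so that their direction was set by the filter. None of these was among the 12, while Rpl24, Rpl28 and Rpl39 were among the 30 at an unadjusted p under 0.05. Of the other 40, 38 lay above 0, with a median of 0.85, and 17 had ranges apart upwards (42.5%, against 12.8% of the 9035 transcripts with a mean of 1 FPKM or more in both genotypes). With values below 1 FPKM set to 1, mean FPKM was over 3-fold higher in cKO for 10 entries, Rpl24 included, against 1.76% of all transcripts. With the values as deposited it was so for 15. These include all 6 entries tested only through the cKO eggs, and the share of all transcripts was not computed. Summed FPKM of the 54 entries was 1549.9, 1804, 1501 and 1397 in WT egg replicates 1 to 4 and 2099, 1944, 2867 and 2007 in the cKO eggs, so every cKO egg library lay above every WT egg library, and all 8 lay below all GV libraries. Without the 3 genes of highest mean over the 16 libraries (Rpl17, Rpl4 and Rplp1) the sums were 947, 1126, 902 and 796 in WT and 1400.5, 1218, 1993 and 1276 in cKO eggs, which kept that order.

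The number of calls in eggs depended on single libraries, while the median moved less. It was 0 of 46 without WT MII replicate 1 and 0 without replicate 3, although 27 and 26 entries were then higher at an unadjusted p under 0.05 in limma. It was 4 without WT MII replicate 2, 1 without replicate 4, 3 without cKO MII replicate 1, 25 when replicate 2 was left out and 7 when replicate 4 was. Without cKO MII replicate 3 it was 8 of 42. Calls over all transcripts moved with them, from 620 higher with all libraries down to 12 without WT MII replicate 1 and 3 without replicate 3, and up to 1024 without cKO MII replicate 2. The median log2 fold change of the tested entries stayed between 0.62, when cKO MII replicate 3 was left out, and 1.06, when replicate 2 was. Of the 8 fits with 1 egg library left out, Rpl34 passed in 6, Rpl5, Rpl18 and Rpl22l1 in 4, Rpl11 in 3, Rpl7, Rpl23a and Rpl32 in 2, and Rpl7a and Rpl27a in 1.

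**Figure D3:**
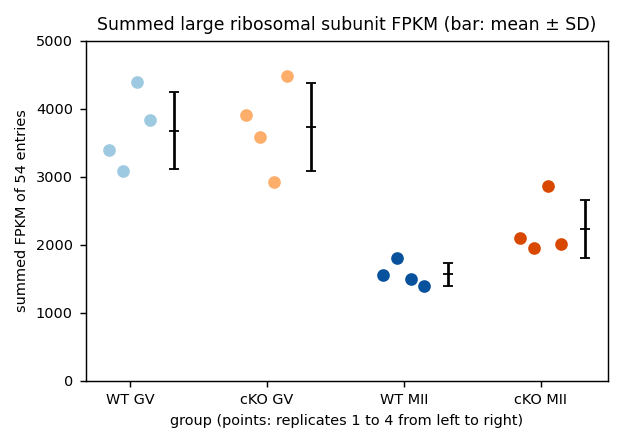
Summed FPKM of the 54 large subunit entries (vertical axis) in each library (points, replicates 1 to 4 from left to right in each group), with the mean ± SD of the 4 libraries beside them. GV groups overlap, with means of 3677 and 3725, and the WT eggs at 1397 to 1804 lie below the cKO eggs at 1944 to 2867.

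**Figure D4:**
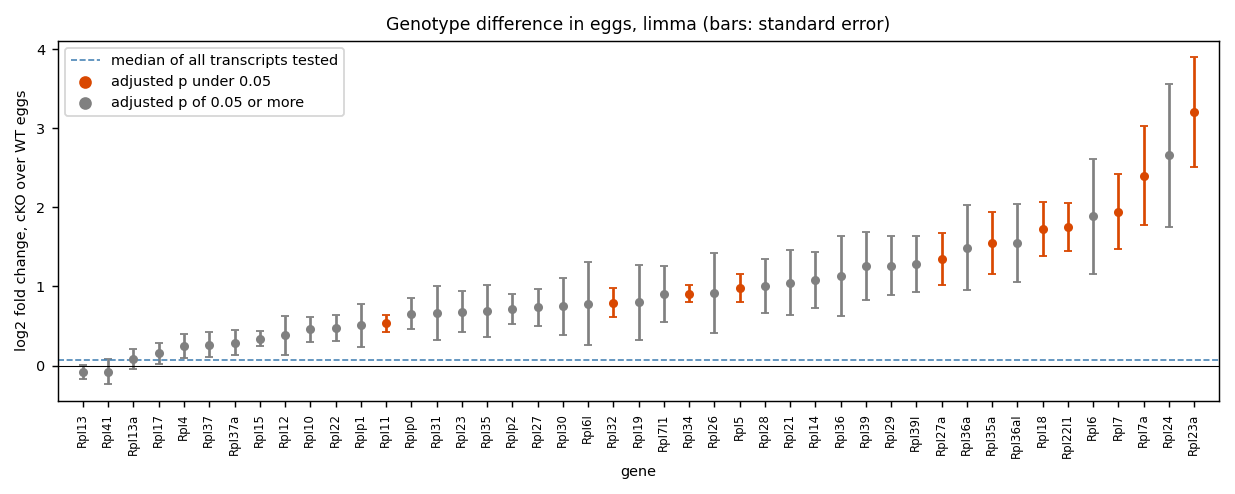
The log2 fold change of cKO over WT eggs (vertical axis, points) with its standard error (bars) from limma for 45 of the 46 entries tested, in rising order. Orange points are the 11 of these with an adjusted p under 0.05, from Rpl11 at 0.53 to Rpl23a at 3.20, and the dashed line is the median of all transcripts tested, 0.070; bars widen to the right.

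The genes are taken by role from here on, with FPKM given for replicates 1 to 4 of each group in order. The stalk that recruits translation factors is built of Rplp0, Rplp1 and Rplp2 and stands on Rpl12. Rplp0, its scaffold, stood at 258, 208, 275 and 259 FPKM in WT GV oocytes and 293, 263, 189 and 262 in cKO GV oocytes. WT eggs held 52.6, 58.4, 53.8 and 57.1 FPKM of Rplp0 and cKO eggs 71.5, 65.4, 135 and 92.8. All egg libraries lay below all GV libraries (log2 fold change -2.17 ± 0.0945 (SE), adjusted p = 7.48e-09, in WT, and -1.51 ± 0.23 (SE), adjusted p = 2.72e-04, in cKO), and all cKO eggs above all WT eggs (0.66 ± 0.20 (SE), adjusted p = 0.0691). Rplp1, the first of the acidic proteins that bind this scaffold, had 166, 141, 242 and 235 FPKM in WT GV oocytes and 195, 184, 152 and 294 in cKO GV oocytes. WT eggs held 186, 222, 171 and 97.2 FPKM of Rplp1 and cKO eggs 303, 224, 266 and 156. Its groups overlapped in every comparison, and it passed none (WT maturation -0.24, adjusted p = 0.396). Rplp2, the partner of Rplp1, had 58.6, 47.4, 84.7 and 68.4 FPKM in WT GV oocytes and 67.5, 53.5, 46.2 and 79.6 in cKO GV oocytes. WT eggs held 101, 104, 80.5 and 65.0 FPKM of Rplp2 and cKO eggs 180.2, 149, 144 and 103. Each cKO egg held more Rplp2 than each cKO GV library (1.23 ± 0.21 (SE), adjusted p = 5.07e-04), whereas WT eggs did not pass the threshold against WT GV oocytes (0.44, adjusted p = 0.0521) nor cKO against WT eggs (0.72, adjusted p = 0.0540). The interaction of Rplp2 did not pass (0.78, adjusted p = 0.183). Rpl12, at the base of the stalk, had 17.5, 13.4, 21.3 and 18.8 FPKM in WT GV oocytes and 21.0, 16.2, 11.1 and 18.2 in cKO GV oocytes. WT eggs held 5.45, 4.93, 3.07 and 5.82 FPKM of Rpl12 and cKO eggs 5.87, 5.16, 8.97 and 5.13. It fell in both genotypes (-1.90 in WT and -1.40 in cKO) without passing between eggs (0.38, adjusted p = 0.326). The scaffold and base of the stalk thus fell in both genotypes while the acidic proteins did not.

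Rpl5 and Rpl11 bind the small ribosomal RNA of the large subunit before it joins the rest, and the same complex binds the p53 regulator MDM2. Rpl5 (chr5:107900502-107909005, plus strand) stood at 131, 137, 181 and 156 FPKM in WT GV oocytes and 136, 131, 131 and 158 in cKO GV oocytes. WT eggs held 25.3, 28.7, 23.4 and 28.0 FPKM of Rpl5 and cKO eggs 46.8, 37.6, 72.3 and 56.8. The egg ranges did not overlap, and Rpl5 was higher in cKO eggs (0.98 ± 0.18 (SE), adjusted p = 0.0259). Its log2 change from GV to MII was -2.51 ± 0.11 (SE), adjusted p = 9.75e-09, in WT and -1.42 ± 0.18 (SE), adjusted p = 9.76e-05, in cKO. Rpl11 had 113, 97.6, 147 and 129 FPKM in WT GV oocytes and 115, 111, 88.5 and 149 in cKO GV oocytes. WT eggs held 62.8, 75.7, 60.5 and 61.6 FPKM of Rpl11 and cKO eggs 102, 93.0, 105 and 78.2. It was also higher in cKO eggs without overlap, by less (0.53 ± 0.11 (SE), adjusted p = 0.0319). From GV to MII Rpl11 fell in WT (-0.89, adjusted p = 7.41e-05) and did not pass in cKO (-0.28, adjusted p = 0.139), a difference that did not pass itself (interaction 0.61, adjusted p = 0.148).

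Rpl4, Rpl17 and Rpl39 line the exit tunnel, and Rpl19, Rpl23a and Rpl35 stand at its outer end, where Rpl23a is a docking site for factors that receive the new chain. Of the 9 tunnel and exit port genes 8 fell in WT (52.4% of all transcripts did) and 7 in cKO (51.0%), and 1 was higher in cKO eggs (6.53%). Rpl19 and Rpl39 among them were under a mean of 1 FPKM in WT eggs. That 1, Rpl23a (chr11:78180932-78183584, minus strand), stood at 90.1, 79.8, 123 and 108 FPKM in WT GV oocytes and 104, 89.1, 80.9 and 132 in cKO GV oocytes. WT eggs held 2.17, 1.47, 2.25 and 0.948 FPKM of Rpl23a and cKO eggs 7.66, 4.62, 50.8 and 28.5. The cKO eggs spanned a wide range, but their lowest value lay above the highest WT value, and the difference of 3.20 ± 0.70 (SE), adjusted p = 0.0333, was the largest of the family. WT eggs kept 2.16, 1.46, 2.24 and 0.945% of the GV mean and cKO eggs 7.55, 4.55, 50.1 and 28.1%. Rpl4 had 393, 386, 429 and 388 FPKM in WT GV oocytes and 411, 441, 365 and 398 in cKO GV oocytes. WT eggs held 148, 164, 153 and 176 FPKM of Rpl4 and cKO eggs 148, 179, 254 and 193. It fell in both genotypes (-1.32 in WT and -1.09 in cKO), with overlapping egg ranges (0.25, adjusted p = 0.287). Rpl17 had 358, 331, 412 and 365 FPKM in WT GV oocytes and 481, 451, 335 and 413 in cKO GV oocytes. WT eggs held 269, 291, 275 and 327 FPKM of Rpl17 and cKO eggs 247, 323, 353 and 382. It fell in WT by little (-0.34, adjusted p = 0.00602) and did not pass in cKO (-0.37, adjusted p = 0.0563) or between eggs (0.15, adjusted p = 0.462).

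Rpl35 stood at 184, 191, 279 and 229.5 FPKM in WT GV oocytes and 233, 189, 179 and 284 in cKO GV oocytes. WT eggs held 37.0, 69.0, 48.1 and 26.3 FPKM of Rpl35 and cKO eggs 63.7, 60.1, 117 and 49.3. Both genotypes lost it (-2.36 in WT and -1.67 in cKO), and its egg ranges overlapped (0.69, adjusted p = 0.194). Rpl19 had 13.1, 11.9, 20.0 and 17.8 FPKM in WT GV oocytes and 15.6, 13.5, 9.82 and 17.5 in cKO GV oocytes. WT eggs held 0.315, 0.599, 0.408 and 0.221 FPKM of Rpl19 and cKO eggs 1.13, 0.610, 5.49 and 1.48. The WT eggs were all under 1 FPKM, so the fitted loss of -3.94 is set by the floor of 1 FPKM, and the egg difference did not pass although the ranges did not overlap (0.80, adjusted p = 0.288). Rpl39 had 10.7, 10.0, 15.2 and 10.0 FPKM in WT GV oocytes and 9.19, 8.65, 6.18 and 12.9 in cKO GV oocytes. WT eggs held 0.373, 0.630, 1.29 and 0.699 FPKM of Rpl39 and cKO eggs 2.67, 0.902, 5.31 and 2.98. In cKO eggs it ranged from 0.902 to 5.31 FPKM, overlapping WT (1.26, adjusted p = 0.0933).

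Rpl3 and Rpl10 reach towards the peptidyl transferase centre, and Rpl10 is one of the last proteins to join the subunit. Rpl10 stood at 211, 201, 286 and 247 FPKM in WT GV oocytes and 236, 227, 165 and 264 in cKO GV oocytes. WT eggs held 111, 142, 120.0 and 87.7 FPKM of Rpl10 and cKO eggs 156, 138, 195 and 141. It fell in both genotypes (in WT -1.04, adjusted p = 8.23e-05, in cKO -0.49, adjusted p = 0.0202), and eggs overlapped (0.46, adjusted p = 0.0944). Rpl3, which was low throughout, had 8.93, 5.28, 7.72 and 7.79 FPKM in WT GV oocytes and 10.0, 9.88, 8.25 and 10.8 in cKO GV oocytes. WT eggs held 0.262, 0.266, 0.317 and 0.197 FPKM of Rpl3 and cKO eggs 0.663, 0.407, 2.27 and 1.43. It fell by nearly equal fitted amounts in WT (-2.87) and cKO (-2.85), values bounded by the floor, and was not tested between eggs.

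On the face that meets the small subunit, Rpl24 and Rpl41 form bridges between the subunits, and they lay at opposite ends of the family. Rpl24 (chr16:55966275-55971435, plus strand) stood at 76.4, 66.2, 106 and 90.1 FPKM in WT GV oocytes and 89.1, 76.9, 60.8 and 129 in cKO GV oocytes. WT eggs held 0.834, 1.31, 0.309 and 0.782 FPKM of Rpl24 and cKO eggs 2.01, 1.85, 43.0 and 13.1. It showed the largest loss in WT (-6.29 ± 0.16 (SE), adjusted p = 4.69e-10), and the WT eggs were at or near the floor. In cKO eggs replicates 3 and 4 stood far above replicates 1 and 2, and the egg difference of 2.66 ± 0.90 (SE), adjusted p = 0.0941, did not pass although no cKO egg fell below a WT egg. Rpl41, which encodes one of the shortest proteins known, had 93.0, 98.7, 141 and 128 FPKM in WT GV oocytes and 119, 113, 90.1 and 167 in cKO GV oocytes. WT eggs held 204, 250.5, 179.5 and 140.2 FPKM of Rpl41 and cKO eggs 168, 191, 202 and 161. It rose in both genotypes (in WT 0.74, adjusted p = 0.00330, in cKO 0.59, adjusted p = 0.0117), with overlap between stages in each, and did not pass between eggs (-0.0750, adjusted p = 0.795).

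The remaining genes encode structural proteins of the subunit body, and 8 of the 21 tested in eggs, the pseudogene Rpl6l included, were higher in cKO, where 6.53% of all transcripts were. Rpl7a (chr2:26910764-26913318, plus strand) stood at 57.8, 50.5, 82.3 and 72.7 FPKM in WT GV oocytes and 73.6, 71.9, 52.6 and 77.2 in cKO GV oocytes. WT eggs held 1.93, 2.90, 1.91 and 1.27 FPKM of Rpl7a and cKO eggs 6.91, 3.18, 32.7 and 14.6. Its cKO eggs all lay above its WT eggs, with an adjusted p just inside the threshold (2.40 ± 0.62 (SE), adjusted p = 0.0487). Rpl7 had 27.3, 29.0, 46.1 and 38.4 FPKM in WT GV oocytes and 32.8, 36.5, 34.3 and 47.4 in cKO GV oocytes. WT eggs held 1.99, 1.68, 1.94 and 1.95 FPKM of Rpl7 and cKO eggs 4.16, 3.94, 21.3 and 7.98. Here too the egg ranges lay apart (1.94, adjusted p = 0.0418). Rpl18 (chr7:45715457-45720836, plus strand) had 30.5, 25.7, 39.7 and 36.8 FPKM in WT GV oocytes and 35.3, 28.9, 23.2 and 42.5 in cKO GV oocytes. WT eggs held 4.07, 6.88, 3.58 and 2.11 FPKM of Rpl18 and cKO eggs 13.8, 9.43, 18.6 and 10.5. It fell in WT (-3.10) and in cKO (-1.33) and was higher in cKO eggs (1.73, adjusted p = 0.0307). Rpl27a had 25.1, 20.7, 29.2 and 24.6 FPKM in WT GV oocytes and 31.7, 24.4, 17.6 and 36.0 in cKO GV oocytes. WT eggs held 3.13, 2.52, 3.77 and 2.66 FPKM of Rpl27a and cKO eggs 5.27, 4.72, 13.7 and 9.85. Again the cKO eggs lay apart (1.35, adjusted p = 0.0419).

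Rpl34 (chr3:130726831-130730398, minus strand) stood at 52.4, 46.9, 75.7 and 65.5 FPKM in WT GV oocytes and 60.7, 55.0, 45.8 and 79.8 in cKO GV oocytes. WT eggs held 33.0, 35.3, 34.0 and 32.8 FPKM of Rpl34 and cKO eggs 70.8, 56.2, 73.7 and 54.9. The 4 cKO eggs were at GV level and the 4 WT eggs below it, with the lowest adjusted p of the family in eggs (0.91 ± 0.11 (SE), adjusted p = 0.0133). WT eggs had lost Rpl34 (-0.81, adjusted p = 2.42e-04) and cKO eggs had not passed the threshold (0.0989, adjusted p = 0.627), with an interaction of 0.91, adjusted p = 0.0635. Rpl32 had 174, 138, 238 and 199 FPKM in WT GV oocytes and 194, 155, 118 and 252 in cKO GV oocytes. WT eggs held 111, 124, 96.2 and 74.6 FPKM of Rpl32 and cKO eggs 219, 158, 193 and 135. It followed the same order, with cKO eggs in the GV range (0.80, adjusted p = 0.0385). Rpl6 had 107, 87.5, 131 and 106 FPKM in WT GV oocytes and 131, 113, 85.4 and 130.4 in cKO GV oocytes. WT eggs held 2.29, 2.75, 2.42 and 2.45 FPKM of Rpl6 and cKO eggs 4.56, 3.39, 52.2 and 8.63. Replicate 3 of the cKO eggs stood far above the rest. The difference did not pass (1.89, adjusted p = 0.124), although all cKO egg libraries lay above all WT egg libraries.

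Rpl37a and Rpl13a were among the few that gained share in eggs. Rpl37a, a zinc-binding protein of the subunit, had 8.87, 8.01, 13.0 and 15.4 FPKM in WT GV oocytes and 11.0, 10.3, 7.17 and 15.0 in cKO GV oocytes. WT eggs held 17.2, 18.7, 20.0 and 14.6 FPKM of Rpl37a and cKO eggs 27.0, 23.0, 20.6 and 16.3. It rose in WT (0.68, adjusted p = 0.00937) and in cKO (1.02, adjusted p = 0.00290), with stage ranges apart in cKO alone. Rpl13a, which also silences a set of inflammatory mRNAs in macrophages, had 5.53, 4.03, 5.52 and 6.94 FPKM in WT GV oocytes and 4.12, 4.26, 4.55 and 4.72 in cKO GV oocytes. WT eggs held 6.15, 5.73, 6.74 and 7.32 FPKM of Rpl13a and cKO eggs 8.10, 6.79, 6.59 and 6.08. It rose in cKO (0.64, adjusted p = 0.00120) and did not pass in WT (0.26, adjusted p = 0.175), and the interaction did not pass either (0.38, adjusted p = 0.366).

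Paralogs outside the standard set ran from a mean of 141 FPKM for Rpl36al to 0.518 for Rpl10l in WT GV oocytes. Rpl22l1 (chr3:28805436-28807424, plus strand), the paralog of Rpl22, stood at 33.7, 30.8, 46.4 and 41.5 FPKM in WT GV oocytes and 35.5, 30.9, 29.5 and 51.2 in cKO GV oocytes. WT eggs held 2.63, 3.34, 3.92 and 3.29 FPKM of Rpl22l1 and cKO eggs 8.25, 7.08, 20.3 and 12.1. It fell in WT (-3.53 ± 0.16 (SE), adjusted p = 9.54e-09) and, by less, in cKO (-1.71 ± 0.32 (SE), adjusted p = 9.74e-04), and cKO eggs lay wholly above WT eggs (1.75 ± 0.30 (SE), adjusted p = 0.0225). Rpl22 itself did not pass in either maturation comparison (-0.27, adjusted p = 0.108, in WT and 0.20, adjusted p = 0.361, in cKO). Rpl36al, the paralog of Rpl36a, had 128, 110.3, 178 and 148 FPKM in WT GV oocytes and 140.1, 132, 108 and 199 in cKO GV oocytes. WT eggs held 8.29, 9.26, 6.22 and 7.92 FPKM of Rpl36al and cKO eggs 12.8, 13.5, 73.6 and 22.1. Replicate 3 of the cKO eggs stood far above the others, and the difference did not pass (1.55, adjusted p = 0.0786) although the egg ranges did not overlap.

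Rpl39l, the paralog of Rpl39 known from testis, had 11.9, 10.2, 15.8 and 10.6 FPKM in WT GV oocytes and 10.5, 11.0, 9.29 and 14.5 in cKO GV oocytes. WT eggs held 1.32, 1.59, 1.30 and 2.12 FPKM of Rpl39l and cKO eggs 4.04, 1.91, 7.09 and 3.71. Its mean level in WT GV oocytes, 12.1 ± 2.55 FPKM, was within the spread of that of Rpl39, 11.5 ± 2.50, though Rpl39l stood above Rpl39 in each WT GV library. Both fell in both genotypes (Rpl39l -2.94 in WT and -1.56 in cKO, Rpl39 -3.41 and -1.81). Rpl7l1, a paralog of Rpl7, had 26.8, 22.3, 21.6 and 18.7 FPKM in WT GV oocytes and 25.7, 23.6, 26.9 and 21.9 in cKO GV oocytes. WT eggs held 2.45, 1.60, 2.31 and 2.71 FPKM of Rpl7l1 and cKO eggs 4.47, 2.104, 7.59 and 4.23. It fell in both genotypes and did not pass between eggs (0.91, adjusted p = 0.127). Rpl10l, a retrotransposed copy of Rpl10 that is used in male germ cells, had 0.510, 0.488, 0.638 and 0.435 FPKM in WT GV oocytes and 1.15, 0.601, 0.375 and 0.743 in cKO GV oocytes. WT eggs held 1.11, 1.00, 0.683 and 1.04 FPKM of Rpl10l and cKO eggs 0.866, 0.995, 0.799 and 0.595. All of these values were near the lower limit of measurement and were not tested.

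The interaction asked whether the change from GV to MII itself differed between genotypes. It passed for 2 of the 50 entries, both smaller losses in cKO, Rpl5 (1.09 ± 0.22 (SE), adjusted p = 0.0324) and Rpl22l1 (1.82 ± 0.38 (SE), adjusted p = 0.0324). None passed in the other direction, where 0 also had an unadjusted p under 0.05 in limma, while 27 had one in the first direction. Over all transcripts 1347 had one in the first direction and 534 in the other. Of all 10615 transcripts tested 1.07% passed upwards and 0.188% downwards. The interaction was above 0 for 45 of the 50 (53.4% of all transcripts), with a median of 0.80 beside 0.026 for all transcripts. Rpl23a, at 3.19, adjusted p = 0.0508, and Rpl18, at 1.77, adjusted p = 0.0506, lay just outside the threshold. Leaving out 1 library at a time gave 0 to 17 entries, with 0 without WT GV replicate 3 or 4, WT MII replicate 1, 3 or 4, or cKO GV replicate 1, 2 or 3, 1 without WT GV replicate 1, 4 without WT MII replicate 2, 3 without WT GV replicate 2, cKO GV replicate 4 or cKO MII replicate 1 or 3, 2 without cKO MII replicate 4, and 17 when cKO MII replicate 2 was dropped. The share of all transcripts that passed upwards moved as well, from 0.350% without cKO GV replicate 3 to 5.67% without cKO MII replicate 2.

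The cKO eggs did not share the excess equally. Replicate 3 held the highest value of the 4 cKO eggs for 38 of the 46 entries and replicate 2 the lowest for 27. Against the mean of the WT eggs, the median log2 difference over the 46 entries was 0.74, 0.42, 1.84 and 0.74 in cKO egg replicates 1 to 4, with 39, 40, 45 and 41 entries above the WT mean. Without the 6 entries under 1 FPKM in WT eggs, the medians were 0.74, 0.45, 1.46 and 0.74 and the counts were 35, 38, 39 and 35 of 40. So each cKO egg library lay above the WT mean for most entries, and replicate 3 by the most. Psma7 itself was 13.6, 50.3, 35.0 and 59.9 FPKM in the same 4 libraries, an order unlike that of the ribosomal excess. Depth was 12.8 to 14.7 M fragments in these libraries, and 13.4 in replicate 3.

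Other transcripts that WT oocytes lost showed the same order of libraries. For the 14 large subunit genes over 10-fold lower in WT eggs by means with values below 1 FPKM set to 1, the median percentage of the GV mean was 5.77, 6.03, 4.97 and 5.85 in WT egg replicates 1 to 4 and 10.5, 8.45, 51.4 and 19.2 in the cKO eggs. For the 371 non-ribosomal transcripts over 10-fold lower by the same measure the median was 5.81, 6.83, 6.11 and 5.85% in the WT eggs and 9.91, 7.95, 28.9 and 15.2% in the cKO eggs. Among these, the 73 with transcripts of up to 1000 nt kept 10.7, 8.75, 47.2 and 21.3% in the cKO eggs and the 260 longer ones 9.91, 7.77, 22.4 and 12.7%. The short ones thus lay close to the ribosomal genes in every cKO egg, and the long ones lower in replicates 3 and 4. The sets were chosen on the WT libraries, so their low WT values are a description. Within the family, the 17 entries of up to 700 nt had a median log2 difference of 2.28 in cKO egg replicate 3 and the 28 longer ones 1.46, while across these 45 entries length and that difference had a Spearman's rho of -0.158 and a Pearson's r of -0.142, which is weak. The part of transcript length, of the higher level of other lost transcripts and of replicate 3 in the family's difference was not tested beyond these values.

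**Figure D5:**
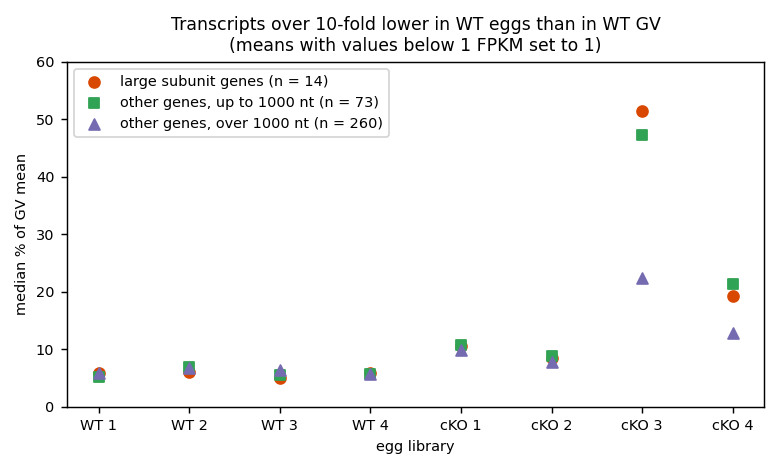
Median percentage of the GV mean of the same genotype (vertical axis) in the 8 egg libraries (horizontal axis) for transcripts over 10-fold lower in WT eggs than in WT GV oocytes (by means with values below 1 FPKM set to 1), as circles for the 14 large subunit genes, squares for 73 other genes with transcripts up to 1000 nt and triangles for 260 longer ones. WT libraries sit near 5 to 7%, and in cKO replicate 3 the circles stand at 51.4%, the squares at 47.2% and the triangles at 22.4%.

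Genes that work with the large subunit were read beside it. The small subunit list had 37 entries, of which 12 of 29 tested were higher and 0 lower in cKO eggs (22 higher and 0 lower at an unadjusted p under 0.05), where 6.53% of all transcripts were higher, with a median log2 fold change of 0.89. They included Rpsa (3.06, adjusted p = 0.00572), Rps13 (2.23, adjusted p = 0.0232) and Rps3 (1.57, adjusted p = 0.0203). In WT maturation 26 of 30 tested fell and 3 rose (52.4% and 26.1% of all transcripts). No test compared the subunits. Summed FPKM of the small subunit entries was 939.7, 1029, 837 and 831 in WT eggs and 1374, 1221, 1863 and 1271 in cKO eggs, with no overlap. Among genes that encode a ribosomal protein fused to ubiquitin or a ubiquitin-like protein, Fau fell in WT (-1.57, adjusted p = 2.30e-06) and in cKO (-0.91, adjusted p = 0.00525), and so did Rps27a (-5.35, adjusted p = 6.04e-10, in WT and -3.27, adjusted p = 0.00153, in cKO). Neither passed between eggs, where the unadjusted limma p was 0.0180 for Fau and 0.0141 for Rps27a.

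Of 32 tested factors that assemble and export the large subunit, 4 were higher in cKO eggs and 0 lower, against 6.53% and 1.49% of all transcripts (7 and 1 at an unadjusted p under 0.05 in limma), namely Ddx18 (0.29, adjusted p = 0.0407), Ebna1bp2 (0.48, adjusted p = 0.0408), Noc4l (0.51, adjusted p = 0.0411) and Rsl24d1 (0.42, adjusted p = 0.0313), and the median log2 fold change was 0.085. In WT maturation 21 of 37 fell and 7 rose (52.4% and 26.1% of all transcripts). Of 9 tested rRNA synthesis genes, 1 was higher in cKO eggs and 0 lower, against 6.53% and 1.49% of all transcripts. It was Polr1d, a subunit shared by RNA polymerases I and III (0.87, adjusted p = 0.0182). Among 13 tested translation factors and other TOP mRNAs, 2 were higher in cKO eggs and 0 lower, against the same shares of all transcripts. They were Eef1b2 (0.53, adjusted p = 0.0350) and Naca (1.57, adjusted p = 0.0393). During WT maturation 9 of 16 tested entries of this list fell and 4 rose (52.4% and 26.1% of all transcripts). Among them the elongation factor Eef1a1 fell (-3.76, adjusted p = 3.56e-10), while Tpt1 (1.13, adjusted p = 3.93e-06) and Npm1 (1.03, adjusted p = 1.45e-06), which are also TOP mRNAs, rose. Of 9 tested entries for regulators of TOP mRNAs, 1 of the 2 entries of Mtor, the kinase that controls their translation, was lower in cKO eggs (-0.46, adjusted p = 0.0477), and no other passed. Of all transcripts 1.49% were lower there and 6.53% higher. That Mtor entry was low, at 3.08 ± 0.187 FPKM in WT and 2.24 ± 0.166 in cKO eggs. The other Mtor entry, at a mean of 0 FPKM in WT and 0.194 in cKO eggs, was not tested there. Between GV oocytes no gene of the small subunit, ubiquitin fusion, assembly, rRNA synthesis, TOP or TOP regulator lists passed in limma. At an unadjusted p under 0.05 the assembly list had 4 genes higher in cKO, the rRNA synthesis list 1 higher and 1 lower, the TOP list 1 higher and the other lists 0.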

How the data were processed

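Smart-seq2 RNA-seq was made from 16 pools of oocytes (GV and MII, WT and Psma7 cKO, 4 per group). The authors deposited 1 table of FPKM values, in which replicates are separate columns and no column was left unused (0); per the labels, TopHat2 2.1.1, Cufflinks 2.2.1 and mm10 were used, while the annotation and the treatment of reads with several matches are not given in the sources used here. The table held values below 1 FPKM, which were set to 1 as in the study's methods before log2 was taken, so a fold change against a gene near 1 FPKM is understated. No counts were at hand, and depth was recovered from the steps of the lowest values.

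Each comparison was fitted over every transcript whose mean reached 1 FPKM across the libraries compared, with limma 3.58.1 in R 4.3.3 (moderation with a trend), and called at a Benjamini-Hochberg adjusted p under 0.05 over all of them, two-sided. Genotypes were compared within a stage, stages within a genotype, and the interaction over all 16 libraries. "Higher", "lower", "rose" and "fell" are used for differences past that threshold, except where ranges or single values are described. Entries of 1 gene name were kept apart. On simulated data with 100 transcripts raised 4-fold and 100 lowered 4-fold, 95 and 98 were called in the egg comparison, and 15 unchanged ones among 9486 transcripts. The changed transcripts had a mean of at least 5 FPKM, and noise was drawn independently for each transcript. The simulation thus checks the code and cannot give the rate of calls for transcripts near 1 FPKM or for libraries that shift as a whole. Promoters were read from RefSeq (GRCm38.p6), gene positions and lengths from GENCODE M21. Summaries were computed with Python 3.11.15, pandas 2.3.3, numpy 2.4.6 and scipy 1.17.1, and figures with matplotlib 3.10.9.

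The genes and lists were chosen with earlier results of these data known, so no p-value is given for a list. All 16 values are given for members of the stalk, 5S and paralog lists, the 5 most abundant in WT GV, the 5 with the largest and the 5 with the smallest change among those past the threshold in each comparison, and Rpl23a and Rpl39. Rpl10a, Rpl13, Rpl22 and the genes of other lists are named as single values. A few genes are counted but not reported here by name or drawn in the plots of single genes. Replicate numbers were shared by the groups, but correlations of same-numbered libraries' deviations ran from -0.496 to 0.285 over 24 pairs, so numbers were not taken as pairs. Alternatives were another floor, an added 1 FPKM, rescaling, other filters, moderation without a trend, a single fit, a replicate block, summed entries and each library left out.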

Additional observations from a re-analysis of the deposited data

Results flagged for a closer look

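In groups of 4 libraries, a value was marked where its gap to the nearest other, divided by the group's range, was above Dixon's critical value at the 95% level; chance marks about 1 group in 20, and 120 groups of single genes were examined. The highest library stood apart for Rpl11 in WT MII (75.7 FPKM), Rpl39 in WT GV (15.2), Rpl4 in WT GV (429), Rpl5 in cKO GV (157.8), Rpl36al in cKO MII (73.6) and Rpl6 in cKO MII (52.2). The lowest library stood apart for Rpl7 in WT MII, at 1.68 FPKM. The summed FPKM of the large subunit genes stood apart in cKO MII replicate 3, at 2867, the library that also holds the high values of Rpl36al and Rpl6.

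The change from GV to MII differed between genotypes by limma's interaction test for Rpl5, by 1.09 on the log2 scale, and for Rpl22l1, by 1.82.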

How the results depend on the processing

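No entry passed between GV genotypes under any setting run. The count of entries higher in cKO eggs, 12 with the main settings, was 1 with no filter on low values, 7 with moderation without a trend and 26 with all 16 libraries in one fit, and 0 to 25 with 1 library left out. Of all transcripts, 0.0315% to 10.8% were higher in cKO eggs with 1 library left out. The count past the interaction, 2, was 1 with 1 FPKM added, 4 with rescaling, 4 with summed entries, 7 at a mean of at least 5 FPKM, 0 with no filter, and 0 to 17 with 1 library left out. Of all transcripts, 0.350% to 5.67% passed the interaction upwards with 1 library left out. Shares of all transcripts under the other settings are not given here, so those counts do not single out the family. The count that rose in WT maturation, 2, was 4 with rescaling. With the replicate number as a block, 4 entries were higher in cKO eggs, though the numbers do not pair the libraries. Over the named genes and all settings no direction past the threshold reversed, and of the single fits 2493 kept their call, 102 lost it and 48 gained it, 74 of those lost in the egg comparison. The cause of the lower counts without a filter was not tested. Genes near 1 FPKM in WT eggs have losses bounded by the floor, and pools of unknown source limit what the p-values cover.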
